A study of Homo sapiens with 7 samples.

Results

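KRABD2 on chromosome 17 and PRRT2 on chromosome 16 are a pair of protein-coding genes whose start lies a short way after the end of another gene read in the same direction. They were examined together with MAZ, the gene that ends upstream of PRRT2, and so 3 of the 19674 protein-coding genes with a known strand are described here. KRABD2 and PRRT2 were chosen by the measured peaks themselves: each had a peak in the promoter window (within 1000 bp of the transcription start site, TSS) in all 6 peak lists, and the height of these peaks ranked them. Among the 163 promoters with a peak in all 6 lists, 0.829% of all promoters tested, KRABD2 held rank 1 and PRRT2 rank 3 by the lowest fold enrichment over the 6 libraries, with 7.20 and 6.19. The promoter of PSMG1, at rank 2, had 6.92, and that of AMH, at rank 4 and so the next one after PRRT2, had 5.93. MAZ was chosen by its position as the neighbour of PRRT2. The presence and the height of the peaks are therefore given below as a description, with no test, and the tests concern position, width and covered bases.

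The peaks came from chromatin immunoprecipitation sequencing (ChIP-seq) with antibody 6D7, which recognises RNA polymerase II (Pol II) phosphorylated at threonine 4 of the repeat in its C-terminal domain (pThr4). Chromatin was from HEK293, an established human embryonic kidney line. Before precipitation, nuclear lysate was exposed outside the cell either to active SCP1 (SCP1-WT), a phosphatase acting mainly on serine 5 phosphate in that repeat, or to SCP1 with the D96A change, which has no catalytic activity (SCP1-Dead), with 3 biological replicates of each. The lists held 12625, 6680 and 36892 peaks in active replicates 1, 2 and 3 and 2466, 1163 and 2699 in inactive replicates 1, 2 and 3. The read depth is unknown, and a longer list admits weaker peaks. A number in the peak names is shared by replicates 1 and 2 and differs in replicate 3, and its meaning is not given in the sources used here.

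Pol II carries on past the end of a gene. After the nascent RNA is cleaved at the transcription end site (TES), the polymerase continues for some distance before it is released, and pThr4 is best known from this termination zone. The CTD near a start site is known for phosphate on serine 5, which can hide a neighbouring pThr4 from an antibody. Where a gene starts soon after another one ends, the termination zone of the first reaches the promoter window of the second. ChIP-seq has no strand, so a peak in such an interval cannot be assigned to polymerases of either gene. The values below give the distance of each peak to both sites.

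The RefSeq sequences of 3 starts at these loci show which letters lay under the peaks. They are the 250 bases before the start, on GRCh38.p14, written 5′ to 3′ on the strand of the gene. Capitals mark a GC box (GGGCGG on either strand), the binding motif of Sp1 factors. KRABD2 is shown because its 250 bases (chr17:8376705-8376954, minus strand) were covered from end to end by a peak in all 6 lists. RPL26 (chr17:8383194-8383443, minus strand), the gene upstream of KRABD2, and PAGR1 (chr16:29815902-29816151, plus strand), the gene downstream of PRRT2, are shown because 0 of their 250 bases were covered in any list.
KRABD2: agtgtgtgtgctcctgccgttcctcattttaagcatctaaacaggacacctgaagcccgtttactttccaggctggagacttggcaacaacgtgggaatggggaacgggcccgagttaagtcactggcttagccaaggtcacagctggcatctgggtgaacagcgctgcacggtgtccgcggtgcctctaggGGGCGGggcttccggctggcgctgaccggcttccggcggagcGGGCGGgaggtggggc
RPL26: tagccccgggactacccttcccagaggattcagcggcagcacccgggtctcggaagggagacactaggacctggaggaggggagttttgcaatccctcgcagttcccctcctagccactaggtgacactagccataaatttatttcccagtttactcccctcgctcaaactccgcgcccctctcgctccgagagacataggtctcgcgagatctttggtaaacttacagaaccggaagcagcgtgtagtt
PAGR1: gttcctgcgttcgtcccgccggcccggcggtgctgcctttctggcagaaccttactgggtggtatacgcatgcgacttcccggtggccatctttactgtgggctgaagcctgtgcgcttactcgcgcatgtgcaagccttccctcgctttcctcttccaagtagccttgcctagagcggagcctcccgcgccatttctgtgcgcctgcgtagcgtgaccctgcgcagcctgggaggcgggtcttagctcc

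The covered KRABD2 sequence lay near the middle of all promoters in base composition, at the 61.2 percentile for G and C and the 63.1 percentile for CpG. It held 62.4% G and C and 17 CpG, against 56% and 14 in RPL26 and 63.2% and 21 in PAGR1. The medians over the 34961 promoters of the table were 58.4% and 11. The GC box was found at 2 places in KRABD2 and at 0 in RPL26 and PAGR1, and 42.7% of all promoters held it. The TATA box (TATAAA), the CCAAT box (CCAAT) and a G-rich motif bound by MAZ (GGGAGGG), searched on both strands, had 0 matches in these 3 sequences. They were found in 10.7%, 31.97% and 24.7% of all promoters. GC box and G-rich motif can share bases, and a match is no evidence of binding. MAZ, whose listed promoter lies inside the longest form of the gene and is not shown, held 88.8% G and C in the 250 bases before the start, with 5 GC boxes and 4 matches of the G-rich motif. A peak met these 250 bases of MAZ in 1 list only, so they were not covered as those of KRABD2 were.

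Positions are on GRCh38. KRABD2 (gene ID 124751, formerly KRBA2, chromosome 17, 8358822 to 8376704, minus strand) is named for a KRAB domain, the repressor module of many zinc finger proteins. RPL26 (gene ID 6154, 8377516 to 8383193, minus strand), which encodes a protein of the large ribosomal subunit, ends 812 bp before the KRABD2 start. PRRT2 (gene ID 112476, chromosome 16, 29812193 to 29815881, plus strand) encodes a membrane protein of presynaptic terminals. MAZ (gene ID 4150, 29806124 to 29811164, plus strand), a zinc finger transcription factor that binds G-rich DNA, ends 1029 bp before the PRRT2 start. MAZ itself follows KIF22 (gene ID 3835, 29790751 to 29805385, plus strand), a kinesin that binds mitotic chromosomes, by 739 bp. PAGR1, which encodes a partner of histone methyltransferases, starts 271 bp after the PRRT2 end. The lncRNA gene MVP-DT (29808644 to 29820367) runs in the opposite direction across the end of MAZ and all of PRRT2.

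The KRABD2 start lay under the peak in all 6 lists. The peak had fold enrichments, the authors' ratio of the library over its background, of 10.5, 10.6 and 9.11 in active replicates 1, 2 and 3, and of 10.9, 7.20 and 10.2 in inactive replicates 1, 2 and 3. The −log10 p-values were 34.8, 32.8 and 30.6 with active and 30.9, 18.7 and 27.96 with inactive SCP1. Inactive replicate 2, the shortest list, was the lowest on both measures, and the groups overlapped on both. By −log10 p-value the peak ranked 5, 4 and 7 in the active lists and 7, 15 and 7 in the inactive lists, so it was among the 15 strongest peaks in each.

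The PRRT2 peak was lower than the KRABD2 peak in every list. Its fold enrichments were 6.71, 7.73 and 7.34 with active and 8.09, 6.19 and 8.81 with inactive SCP1. The −log10 p-values were 17.2, 19.8 and 20.4 with active and 19.4, 13.96 and 21.7 with inactive SCP1, and the groups overlapped on both measures. Inactive replicate 2 again had the lowest values. The log2 ratio of fold enrichments was taken as the mean log2 value of the active libraries minus that of the inactive ones. It was 0.12 for KRABD2 and -0.07 for PRRT2, against a pooled SD between replicates of 0.24 and 0.20. The sign of each ratio turned when 1 library was left out, to -0.07 for KRABD2 without inactive replicate 2 and to 0.03 for PRRT2 without inactive replicate 3, and fold enrichments of separate libraries share no common scale. Fold enrichment is also an average over the peak, and peak widths differed. The PRRT2 peak was 4370 and 4507 bp wide in active replicates 1 and 3 and 822 to 867 bp with inactive SCP1. The ratios thus do not compare equal stretches.

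MAZ also had a peak in its promoter window in all 6 lists, lower than those of KRABD2 and PRRT2 in each except active replicate 1, where it exceeded that of PRRT2. In that list the MAZ peak was 900 bp wide and the PRRT2 peak 4370 bp, so their averages cover unlike stretches. The fold enrichments were 7.06, 6.54 and 5.12 with active and 5.46, 4.71 and 4.88 with inactive SCP1. The −log10 p-values were 20.4, 16.9 and 12.97 with active and 11.6, 9.75 and 9.51 with inactive SCP1. The active replicates had the higher −log10 p-values without overlap, while the fold enrichments overlapped. How common such a separation of −log10 p-values is among all promoters was not counted, so it is not read as a trait of MAZ. By its lowest fold enrichment MAZ ranked 26 of the 163 promoters.

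**Figure D1:**
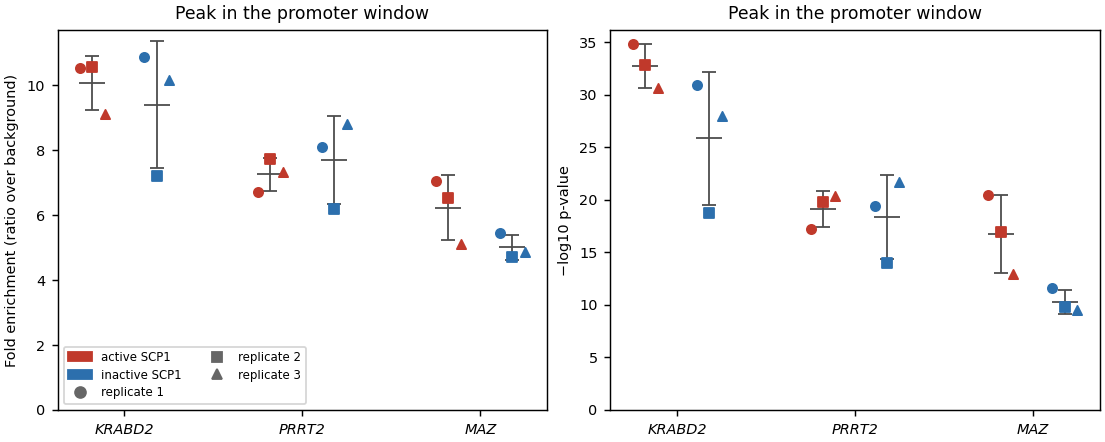
Fold enrichment (left axis, ratio over background) and −log10 p-value (right) of the peak in the promoter window of KRABD2, PRRT2 and MAZ; points are single libraries, marked by replicate, and bars are the mean ± SD of 3 libraries. KRABD2 has the highest values in all 6 libraries, and the groups overlap for KRABD2 and PRRT2.

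The 3 peaks differed in where they lay relative to the start. At PRRT2 the bulk of the peak lay before the start in all 6 lists. Counted from the start, with negative positions before it, the downstream edge lay at -80, 6 and 234 bp in active replicates 1, 2 and 3 and at -102, -174 and -244 bp in inactive replicates 1, 2 and 3. The start itself was thus covered in 2 of 6 lists, both with active SCP1, and in active replicate 2 by only 7 bases of the gene. At MAZ the downstream edge lay between -244 and -105 bp in 5 lists, and only in active replicate 3 did the peak cross the start, by 705 bp. At KRABD2, by contrast, the peak reached 723, 485 and 3075 bp past the start in active replicates 1, 2 and 3 and 768, 419 and 502 bp past it in the inactive replicates. A start covered in all 6 lists was found at 73 of the 19674 genes, 0.371%, and KRABD2 was one of them.

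Measured from the end of the upstream gene, the peaks of the inactive libraries began close to that end or shortly after it. The PRRT2 peak began at 61, 34 and -37 bp from the MAZ end in inactive replicates 1, 2 and 3. It filled 84.3%, 79.96% and 76.4% of the 1028 bases between the genes. In active replicate 2 it had the same form, from 16 to 1035 bp after the MAZ end, and filled 98.5% of the interval. In active replicates 1 and 3 the peak was 1 piece with signal inside MAZ and began at -3420 and -3243 bp from the MAZ end. In these 2 lists it also covered the end of the opposite-strand gene MVP-DT, which lies inside MAZ at 29808644. The stretch covered in all 6 lists was 725 bp long, from 61 to 785 bp after the MAZ end (29811225 to 29811949), and stopped at -244 bp from the PRRT2 start.

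The peak before MAZ repeated this arrangement one gene earlier. It covered the KIF22 end in 5 of 6 lists and began 117 bp after it in inactive replicate 2. The stretch covered in all 6 lists was 379 bp long, from 117 to 495 bp after the KIF22 end (29805502 to 29805880), and also stopped at -244 bp from the MAZ start. RefSeq lists another MAZ start 405 bp further into the gene, which was also under the peak in 1 list only, that of active replicate 3.

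At KRABD2 the peak began 299 to 402 bp after the RPL26 end in active replicate 3 and the 3 inactive replicates, and 181 bp after it in active replicate 2. In active replicate 1 it began inside RPL26, at -899 bp. The stretch covered in all 6 lists was 830 bp long (8376285 to 8377114). It ran from 402 to 1231 bp after the RPL26 end, which is from -410 to 419 bp relative to the KRABD2 start. It was thus nearly centred on the start while lying wholly after the end of RPL26. The other start that RefSeq lists for KRABD2, 5164 bp into the gene, had no peak within 1000 bp in any list.

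**Figure D2:**
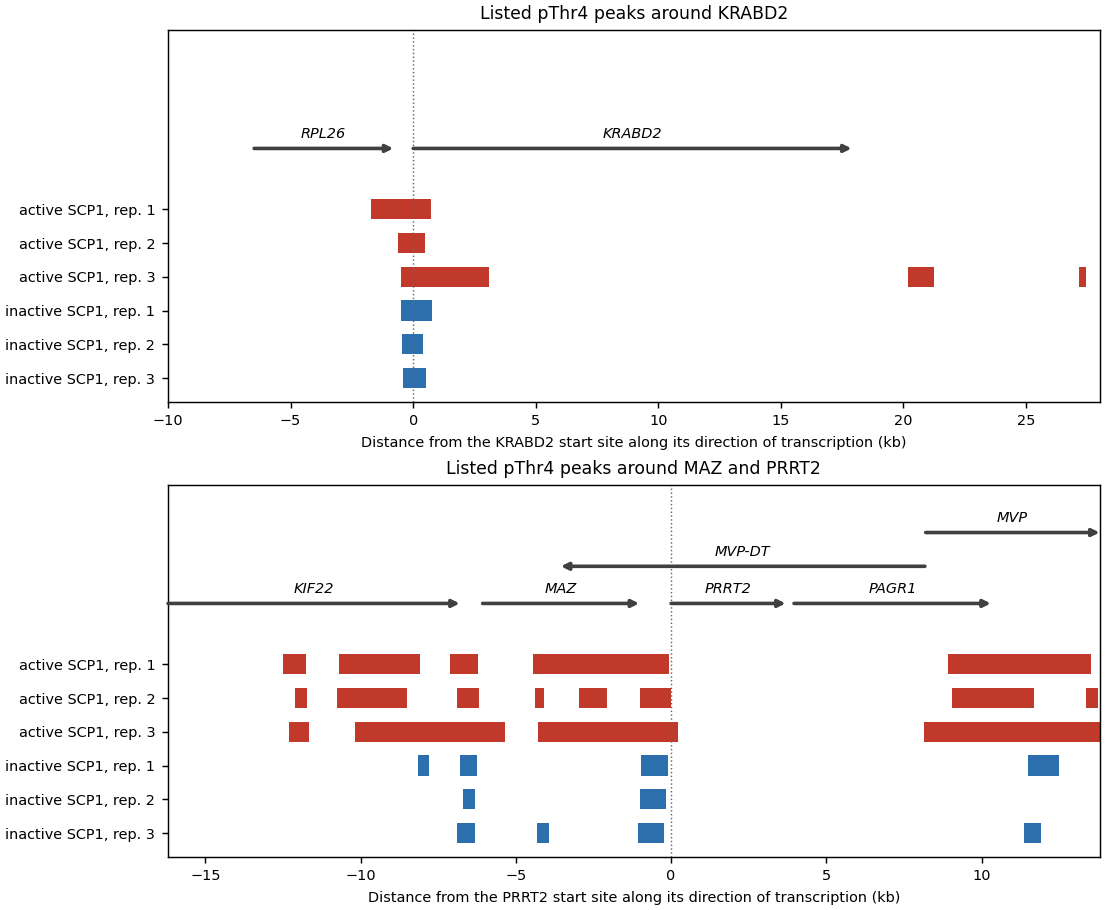
Listed pThr4 peaks (bars, 1 row per library) around KRABD2 (top) and around MAZ and PRRT2 (bottom) by distance in kb from the KRABD2 or PRRT2 start; arrows are genes in their direction of transcription. Peaks lie between RPL26 and KRABD2, between KIF22 and MAZ and between MAZ and PRRT2 in all 6 libraries, and none lies between PRRT2 and PAGR1.

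To ask whether these positions fit a termination zone, they were set beside peaks of the same list at isolated gene ends, where no other gene lay in the 5000 bp after the TES (8723 protein-coding genes of at least 2000 bp, of which 285 to 2726 had a peak from 1000 bp before to 5000 bp after the TES). Peaks there were densest 900 to 1100 bp after the TES in all 6 lists. The half-height zone, in which the share of these peaks covering a position was at least 50% of its maximum, began between -700 and 400 bp from the TES and ended 2100 to 4300 bp after it. The same was done at isolated promoters, with no gene in the 5000 bp before the TSS (8749 genes). Peaks there were densest 100 to 200 bp after the TSS, and the half-height zone began between -500 and 0 bp from the TSS and ended 500 to 1600 bp after it. Only 44, 17 and 49 isolated promoters had a peak in inactive replicates 1, 2 and 3, so the promoter zone of these lists is coarse. With promoters isolated by 10000 bp, an alternative given below, these counts were 18, 7 and 22, and percentiles are coarser still. These comparisons are descriptions with no test. The peaks of the 3 genes had to meet a window within 1000 bp of a start, 739 to 1029 bp after the upstream end. Reference peaks at gene ends could lie up to 5000 bp after the TES. A centre inside the gene-end zone and a low percentile among gene ends were thus partly set in advance.

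The PRRT2 peak was centred within the gene-end zone of its list in 4 of 6 lists and within the promoter zone in 0 of 6. Its centre lay 374 to 526 bp after the MAZ end in these 4 lists, at the 17.2 to 21.6 percentile of the isolated gene ends. In active replicates 1 and 3, where the peak joined with signal in MAZ, the centre lay at -1235.5 and -990 bp from the MAZ end, at the 3.998 and 6.79 percentile. Against isolated promoters the centre stood at a median percentile of 10.1 (range 0.810 to 17.6 over 6 lists), on the upstream side, and at 5.05 with promoters isolated by 10000 bp. The PRRT2 peak lay earlier than most of these reference peaks, and before the place where isolated gene ends are densest. Against gene ends this was partly set in advance, since the peak had to meet the window of a start 1029 bp after the MAZ end.

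The MAZ peak was centred within the gene-end zone of its list, counted from the KIF22 end, in 3 of 6 lists and within the promoter zone in 0 of 6. Its centre lay 153 to 307 bp after the KIF22 end in 5 lists, and active replicate 3 was the exception, at -958 bp. The median percentile was 14.6 among isolated gene ends (range 7.01 to 17.8) and 11.9 among isolated promoters (range 1.99 to 17.6).

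The KRABD2 peak was centred within the gene-end zone, counted from the RPL26 end, in 6 of 6 lists, and within the promoter zone in 3 of 6. The first count was largely set in advance by the promoter window and the 812 bp between the RPL26 end and the KRABD2 start. Its centre lay 318, 739 and 2093 bp after the RPL26 end in active replicates 1, 2 and 3 and 942, 785 and 858 bp after it in the inactive replicates. The median percentile was 30.8 among isolated gene ends (range 20.4 to 59.1) and 31.4 among isolated promoters (range 12.1 to 91.9), the latter falling to 19.1 with promoters isolated by 10000 bp. The densest place of the gene-end zone, counted from the RPL26 end, is close to the KRABD2 start, so by position alone the end of RPL26 and the start of KRABD2 cannot be told apart as the site of this peak.

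**Figure D3:**
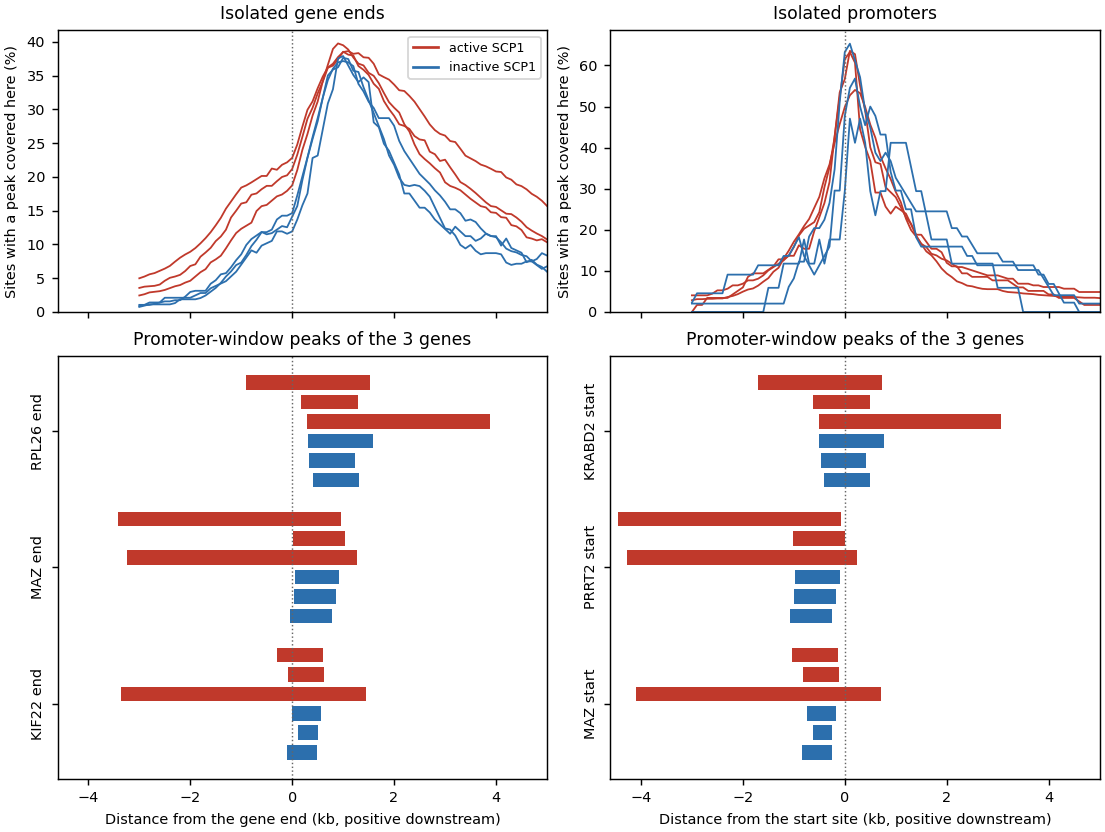
Top, percent of isolated gene ends (left) or isolated promoters (right) with a peak whose peak covers each position, 1 line per library, by distance in kb from the TES or TSS; bottom, the promoter-window peaks of the 3 genes on the same axes, 1 bar per library in the order active 1 to 3, inactive 1 to 3 from the top. The inactive PRRT2 and MAZ peaks end before the start on the right, and the KRABD2 peaks cross it in all 6 libraries.

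The other ends of these genes differed from the intervals described. The windows around the KRABD2 end and the PRRT2 end had a peak in 0 of 6 lists. The windows around the KIF22, MAZ and RPL26 ends had one in all 6, as did 3.38% of gene ends tested. The last 3 are the same peaks as those in the promoter windows of MAZ, PRRT2 and KRABD2, since the windows overlap, and they do not count as further evidence. The windows around the RPL26 and KIF22 starts, which have no gene end close by upstream, had a peak in 0 of 6 lists. The PAGR1 start, 271 bp after the PRRT2 end, also had none in any list. A site without a listed peak may still hold signal below the cutoff of that list.

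Of the 163 promoters with a peak in all 6 lists, 93 (57.1%) had the end of a same-strand protein-coding gene within 2000 bp upstream, as have KRABD2, PRRT2 and MAZ. Among all promoters 5.73% had such a neighbour. A promoter window near a gene end takes in part of the zone after it. How far this share depends on the width of the window was not tested. Of the 93, 49 had the start itself under a peak in all 6 lists, as at KRABD2, and PRRT2 and MAZ were among the others. The end of the downstream gene had a peak in at least 1 list at 68 of the 93, and KRABD2 and PRRT2 were among the 25 where it had none.

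Among these 93 promoters, the peak most like that of KRABD2 over the 6 libraries, by the mean absolute difference of log2 fold enrichment, was at PSMG1, a proteasome assembly chaperone gene that starts 662 bp after the end of BRWD1, with a difference of 0.30. SCRIB, a cell polarity gene 571 bp after PUF60, followed with 0.37 and PRRT2 with 0.38. Most like PRRT2 were SCRIB with 0.14, AMH, the anti-Müllerian hormone gene 668 bp after SF3A2, with 0.14, and SYNRG, 321 bp after DDX52, with 0.21. The start lay under a peak in 6 lists at PSMG1 and SYNRG, in 5 at SCRIB and in 4 at AMH, against 2 at PRRT2.

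The groups were then compared in measures that the choice of the genes did not use directly. They are not free of that choice, since a peak had to meet the promoter window in every list. This limits its position and makes it part of the covered bases. The width of the PRRT2 peak was 4370, 1020 and 4507 bp with active and 867, 822 and 823 bp with inactive SCP1. Every active library was above every inactive one, a difference of 2462 bp (exact permutation test, p = 0.1, the smallest possible with 3 against 3; adjusted p = 0.23 over 7 tests). Within replicates 1 and 2 the difference was 1850.5 bp. Active replicate 2 was close to the inactive libraries, while replicates 1 and 3 were far wider. Such a separation was common: 72.4% of the 163 promoters had wider peaks in every active list.

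The KRABD2 peak was 2435, 1117 and 3589 bp wide with active and 1278, 894 and 913 bp with inactive SCP1. The groups overlapped, since active replicate 2 was narrower than inactive replicate 1, with a difference of 1352 bp (exact permutation test, p = 0.2; adjusted p = 0.28). Without active replicate 3 it was 748 bp, and within replicates 1 and 2 it was 690 bp. The centre of the KRABD2 peak differed by 189 bp (exact permutation test, p = 1) and that of the PRRT2 peak by -1004 bp (exact permutation test, p = 0.4), in both cases with overlap of the groups. The KRABD2 difference changed its sign, to -333 bp, without active replicate 3, and the groups then did not overlap (exact permutation test, p = 0.1). The PRRT2 difference was -1550 bp without active replicate 2, and the groups then also did not overlap (exact permutation test, p = 0.1, the smallest possible with 2 against 3). With any other library left out, the exact permutation test of the PRRT2 centre gave p = 0.4. How common such separations are among all promoters was not counted.

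Around MAZ and PRRT2 more bases were covered in every active library. In MAZ with 10 kb on either side, peaks covered 8688, 5548 and 10762 bp with active and 1780, 1203 and 1812 bp with inactive SCP1. The difference was 6734 bp (exact permutation test, p = 0.1; adjusted p = 0.23), and 5627 bp within replicates 1 and 2. Around PRRT2 the values were 11815, 7387 and 14683 bp against 2774, 1203 and 2364 bp. The difference was 9181 bp (exact permutation test, p = 0.1; adjusted p = 0.23), and 7613 bp within replicates 1 and 2. The windows of the 2 genes overlap, so these are not separate results. Of all genes, 25.6% had more covered bases in every active list than in any inactive list over the same kind of window. With the 1163 strongest peaks of each list the differences were 3951 bp around MAZ and 3564 bp around PRRT2, and the groups overlapped (exact permutation tests, p = 0.2 and p = 0.3).

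Around KRABD2, peaks covered 2435, 1117 and 4942 bp with active and 1278, 894 and 913 bp with inactive SCP1. The groups overlapped, with a difference of 1803 bp (exact permutation test, p = 0.2; adjusted p = 0.28), which was 748 bp without active replicate 3. The promoter peak was the only peak of this window in 5 of 6 lists, and active replicate 3 listed 3 peaks. This test thus largely repeats that of the KRABD2 width and is not a separate result.

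Among the genes around MAZ and PRRT2, MAZ, KIF22 and PAGR1 were more covered in every active library, and PRRT2 was not. Peaks covered 67.9%, 23.9% and 78.4% of MAZ with active and 0%, 0% and 8.55% with inactive SCP1. For KIF22 the shares were 24.9%, 18.4% and 27.3% with active and 2.33%, 0% and 0.690% with inactive SCP1. PAGR1 was covered over 21.9%, 19.6% and 33.9% with active and 0% in all 3 inactive libraries. These 3 genes had more in every active list than in any inactive list, as had 14.3% of all genes. The peaks over PAGR1 lay almost wholly inside MVP, a gene that starts at 29820394 and overlaps the end of PAGR1. The windows around the MVP and MVP-DT starts had a peak in 3 active and 0 inactive lists, so the covered bases cannot be assigned to PAGR1 alone. In the lists of equal length MAZ had 67.9%, 0% and 78.4% with active and 0%, 0% and 8.55% with inactive SCP1, so active replicate 2 no longer stood above the inactive libraries. KIF22 had 2.04%, 0.519% and 22.97% with active and 0.0342%, 0% and 0.690% with inactive SCP1 in those lists, which also overlapped. PAGR1 was covered over 0% in all 6 of those lists, so the difference at PAGR1 rested on weaker peaks of the longer lists. At a −log10 q-value of at least 2, MAZ and KIF22 stayed higher in every active list, with 18.2% and 15.8% in active replicate 2. PAGR1 was then covered only in active replicate 3. At a −log10 p-value of at least 6 the groups overlapped for MAZ, KIF22 and PAGR1. These other list forms were added for these genes after the values had been seen. PRRT2 was covered over 0%, 0.190% and 6.37% with active and 0% in all 3 inactive libraries. RPL26 was covered only in active replicate 1, over 15.9%, next to its end. KRABD2 was covered over 4.05%, 2.72% and 17.2% with active and 4.30%, 2.35% and 2.81% with inactive SCP1.

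**Figure D4:**
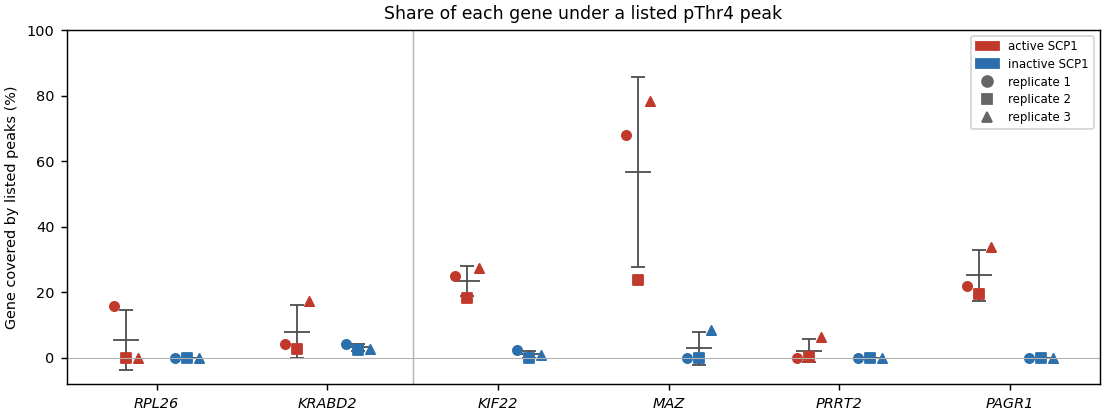
Percent of each gene covered by listed peaks, with points for single libraries marked by replicate and bars for the mean ± SD of 3 libraries; the line parts chromosome 17 (left) from chromosome 16 (right). MAZ reaches 78.4% with active SCP1 while PRRT2 stays at 6.37% or below.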

How the data were processed

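pThr4 ChIP-seq peaks of HEK293 were analysed in 6 libraries, 3 per group, grouped by the titles of the samples. The IgG control was not analysed here. The submitters' processing notes name cutadapt 4.6, Bowtie2 2.5.2 and hg38; the peak caller is not given in the sources used here, and the layout is that of MACS broad peaks, called per library. Per peak the authors deposited a fold enrichment (a ratio over background, averaged over the peak), its −log10 p-value, the −log10 of the q-value, and an integer score made by scaling the latter. That deposited score was not used. Read counts were not used here, so depth is unknown and precision rests on 3 replicates. Fold enrichments have no common scale across libraries.

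Peaks on chromosomes 1 to 22 and X were kept (8 to 96 peaks per list were left out). Genes were taken from RefSeq GRCh38.p14, with TSS and TES as the outermost ends. Of 19974 protein-coding genes 98.5% had a strand, 15812 from the RefSeq promoter table and 3862, PRRT2 among them, by name from GENCODE release 44, whose GRCh37 coordinates were not used. An overlap of 1 bp counted. Where several peaks met a window, the one with the highest −log10 p-value was taken. Groups were compared with two-sided exact permutation tests over 20 assignments, with Benjamini-Hochberg adjustment over 7 tests. Same-numbered libraries were also taken as pairs, since the lysate was divided into matched aliquots. The alternatives were lists of equal peak number, a −log10 p-value of at least 6, a −log10 q-value of at least 2, windows of 500 bp or flanks of 5 kb, and leaving out each library. Named genes were the 3 members, their upstream genes, genes within 10 kb and, for KRABD2 and PRRT2, the 3 promoters of most similar height. The members, lists and tests were chosen with earlier results of these data known. The analysis used Python 3.11.15 and was tested on simulated intervals.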

Additional observations from a re-analysis of the deposited data

How the results depend on the processing

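Of 84 alternative values for the 7 tested differences between groups, 82 kept their direction, but this count overstates the agreement. The replicate-block values equal the main difference by construction. For widths and centres, the other list forms and the windows of 500 bp returned the same peaks. The exceptions in direction concerned the centre of the KRABD2 peak. Its difference was -334.5 bp within replicates 1 and 2. When 1 library was left out it ranged from -333 to 555 bp, negative only without active replicate 3. The difference in the PRRT2 centre ranged from -1550 to -670 bp. With 3 libraries per group no exact p can fall under 0.1. With same-numbered libraries paired as a replicate block, the values were the same, for example 2462 bp for the PRRT2 width. The exact sign-flip test gave p = 0.25 for that width, the smallest possible for 3 pairs, so no difference could give a lower p. Around PRRT2 and MAZ the covered bases differed by 5541 and 4356 bp at a −log10 p-value of at least 6 (exact permutation tests, p = 0.2 and p = 0.1). At a −log10 q-value of at least 2 they differed by 6212 and 5277 bp (exact permutation tests, p = 0.1 for both). With 5 kb flanks the difference around PRRT2 was 2912 bp. Widths and centres did not change with the form of the list, since the peaks passed every cutoff. Promoters with a peak in all 6 lists numbered 89 at the p cutoff and 100 at the q cutoff, and gene ends 314 and 390. Gene ends numbered 406 with lists of equal peak number and 429 with windows of 500 bp. Against the strongest 25% of peaks at isolated gene ends, the MAZ peak stood at a median percentile of 18.98. Against promoters isolated by 10000 bp the median percentiles were 19.1 for KRABD2, 5.05 for PRRT2 and 5.05 for MAZ. Against the strongest 25% of peaks at isolated promoters they were 20, 5.75 and 8.39. Inactive replicates 1, 2 and 3 had only 18, 7 and 22 reference peaks with the wider isolation. Among the strongest 25% they had 11, 5 and 13, so these percentiles are coarse. In each case the cause was not tested.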

Other observations

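Some peaks at these loci fell outside the comparisons. Past the KRABD2 end, active replicate 3 listed a peak from 2313 to 3378 bp after it, with a fold enrichment of 3.01, and the other 5 lists held none there. Around the end of PAGR1, which lies inside MVP, the gene of the major vault protein, peaks started at 29821100, 29821248 and 29820343 in active replicates 1, 2 and 3 and at 29823678 and 29823569 in inactive replicates 1 and 3. Their fold enrichments were 3.21, 3.41 and 3.88 with active and 3.95 and 3.49 with inactive SCP1, and inactive replicate 2 listed no peak. The inactive peaks began 1189 and 1080 bp after the PAGR1 end, so the window of 1000 bp around this end had a peak in 3 active and 0 inactive lists.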
